A study of Homo sapiens with 4 samples.

Results

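The 9 genes described here encode histone variants whose mRNAs are known to carry a poly(A) tail: the linker histones H1F0 and H1FX, the H2A variants H2AFX, H2AFZ, H2AFV, H2AFJ and H2AFY, and the H3.3 genes H3F3A and H3F3B. They were chosen by gene name, with an FPKM value (a fragment count divided by transcript length and by the size of the library) required in every library, and all 9 met this, out of 11288 genes with a value in all 4 libraries. The libraries are bulk RNA of MDA-MB-231, an established human triple-negative breast cancer cell line, grown in L15 medium with serum. In the PABPC1 pulldown library, RNA bound to PABPC1 was recovered from cell lysate by RNA immunoprecipitation with an antibody to PABPC1. The input library is the lysate control of that pulldown. The si_LINC00882 library came from cells transfected to knock down the long non-coding RNA LINC00882, by an siRNA or a Smart Silencer (both terms occur in the labels), and the si_NC library is its labelled control. With 1 library in every group and no replicates, no test was possible, and all differences below describe these libraries only. LINC00882 itself and an IgG pulldown were not analysed here, which leaves the knockdown unchecked.

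Histone variants differ from the bulk of cellular histone in how their mRNAs end and when they are made. Replication-dependent histone mRNAs, made in S phase from mostly clustered genes, mostly end in a stem-loop without a poly(A) tail. Variant genes mostly lie outside those clusters, are transcribed outside S phase as well, and yield polyadenylated mRNAs, for H2AFX beside a stem-loop form. PABPC1, a cytoplasmic protein that binds poly(A), coats poly(A) tails and links them to translation initiation and to deadenylation. The tables hold no measurement of tails, so the polyadenylation of these mRNAs is background and was not checked. Because the RNA was bulk, fewer cells with a transcript and less of it per cell cannot be told apart.

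As a frame for the values that follow, the share of summed FPKM held by mitochondrially encoded genes was 3.08% in the pulldown library, 47.3% in input, 19.3% in si_LINC00882 and 16.3% in si_NC, and the summed FPKM of input (338894) exceeded that of the pulldown (197844). How far this makes FPKM of lysate and pulldown comparable was not tested, and ratios are therefore also given relative to the median of all genes. PABPC1 mRNA itself stood at 255 FPKM in the pulldown and 412 in input. Its level was 158 FPKM in si_LINC00882 and 173 in si_NC. Of 8 marker genes listed as high in this line, 7 had values, between 10.7 and 367 FPKM over the libraries. SPARC had none. Of 8 luminal and epithelial markers, GATA3, EPCAM and ERBB2 had values, at most 10.5 FPKM, with summed levels of 18.4 in the pulldown, 12.0 in input, 10.4 in si_LINC00882 and 11.3 in si_NC. EPCAM had 10.5 FPKM in the pulldown and 6.79 in input, against 2.24 in si_LINC00882 and 3.26 in si_NC. ERBB2 was lowest in input (1.67) and GATA3 highest there (3.58). The part of these markers in the results was not tested. The other markers, among them all 4 of blood and endothelial cells, were looked up by name and had no value to report, which sets no limit on their level.

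Some promoters are shown first, because they set apart genes that encode one protein or nearly one. H3F3A and H3F3B encode the same H3.3 protein, and H2AFZ and H2AFV encode the closely similar H2A.Z proteins, from genes on different chromosomes. H2AFX is added as the member with the highest level in 3 of the 4 libraries. All 9 members matched a RefSeq gene by an older symbol, and 8 of them had promoter windows of 300 bases, from 250 before to 50 after an annotated start, 12 windows in all (RefSeq, GRCh38.p14). H1F0 had none. By RefSeq, H1F0 lies on chromosome 22, H1FX on 3, H2AFJ on 12 and H2AFY on 5. The spans of H1FX, H2AFY and H3F3A overlap non-coding genes (H1-10-AS1, PITX1-AS1 and H3-3A-DT) that were not analysed here, and whether counting used strand is not stated, so reads of such pairs cannot be told apart. In the sequences below, capitals mark CCAAT (or ATTGG, the same motif on the other strand) and TATAAA (or TTTATA). H2AFX lies at chr11:119095416-119095715 on the minus strand, H2AFZ at chr4:99950226-99950525 on the minus strand, H2AFV at chr7:44848038-44848337 on the minus strand and H3F3B at chr17:75779730-75780029 on the minus strand. For H3F3A, on the plus strand, the most upstream of its 4 windows (chr1:226061581-226061880) and the most downstream (chr1:226062466-226062765) are shown.
H2AFX: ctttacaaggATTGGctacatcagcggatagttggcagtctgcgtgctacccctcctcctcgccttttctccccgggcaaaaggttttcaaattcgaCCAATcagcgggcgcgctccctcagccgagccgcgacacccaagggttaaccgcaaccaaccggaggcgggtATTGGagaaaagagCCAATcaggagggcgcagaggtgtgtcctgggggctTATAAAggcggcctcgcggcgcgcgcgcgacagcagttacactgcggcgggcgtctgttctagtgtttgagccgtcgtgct
H2AFZ: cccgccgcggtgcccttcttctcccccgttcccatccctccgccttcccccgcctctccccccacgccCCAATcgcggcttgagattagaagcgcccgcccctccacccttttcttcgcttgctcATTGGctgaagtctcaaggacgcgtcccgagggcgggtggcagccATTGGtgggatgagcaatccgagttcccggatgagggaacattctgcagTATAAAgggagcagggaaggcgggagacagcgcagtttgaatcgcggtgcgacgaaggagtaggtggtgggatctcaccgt
H2AFV: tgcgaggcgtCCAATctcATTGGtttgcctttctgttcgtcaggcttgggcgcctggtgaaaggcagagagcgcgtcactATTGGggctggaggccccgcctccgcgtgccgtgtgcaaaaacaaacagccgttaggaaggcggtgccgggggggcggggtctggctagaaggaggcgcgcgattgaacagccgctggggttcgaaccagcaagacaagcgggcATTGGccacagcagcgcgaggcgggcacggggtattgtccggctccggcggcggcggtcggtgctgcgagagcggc
H3F3B: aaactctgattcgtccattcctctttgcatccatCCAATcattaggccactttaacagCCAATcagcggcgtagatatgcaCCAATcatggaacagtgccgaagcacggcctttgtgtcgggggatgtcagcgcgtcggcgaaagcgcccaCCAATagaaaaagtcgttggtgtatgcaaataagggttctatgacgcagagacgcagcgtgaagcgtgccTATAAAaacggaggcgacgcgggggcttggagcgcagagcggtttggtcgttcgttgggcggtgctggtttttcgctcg
H3F3A upstream: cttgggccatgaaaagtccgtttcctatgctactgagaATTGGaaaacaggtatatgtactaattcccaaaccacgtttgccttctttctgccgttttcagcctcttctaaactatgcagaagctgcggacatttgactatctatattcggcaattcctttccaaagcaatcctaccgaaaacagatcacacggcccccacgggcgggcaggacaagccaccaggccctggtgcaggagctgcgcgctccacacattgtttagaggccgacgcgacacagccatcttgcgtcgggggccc
H3F3A downstream: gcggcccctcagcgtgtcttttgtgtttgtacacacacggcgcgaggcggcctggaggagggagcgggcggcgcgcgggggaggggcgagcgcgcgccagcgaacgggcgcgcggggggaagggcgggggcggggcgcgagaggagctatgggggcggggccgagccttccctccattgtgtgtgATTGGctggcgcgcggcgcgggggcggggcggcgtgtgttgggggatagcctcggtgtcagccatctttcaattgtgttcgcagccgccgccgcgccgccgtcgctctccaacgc

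TATAAA occurred in 4 of the 12 windows, each time on the gene's own strand. It was found for 4 of the 8 genes, H1FX, H2AFX, H2AFZ and H3F3B. Its first base lay 31 bases before the start in H1FX, H2AFX and H2AFZ and 29 bases before it in H3F3B. Among 22199 windows of protein-coding genes, 9.47% held TATAAA on either strand, and 2.96% held it on the gene's strand with its first base 25 to 35 bases before the start. H2AFV, the partner of H2AFZ, and H3F3A, the partner of H3F3B, had no match in any window. CCAAT was found for 7 of the 8 genes, all but H1FX, and in 9 of the 12 windows, against 34.7% of protein-coding windows. H2AFX, H2AFV and H3F3B held 4 matches each, H2AFZ and H2AFJ 3 each and 1 of the H2AFY windows 2. At least 2 matches were found in 6 of the 12 windows, against 11.4% of protein-coding windows. The 2 motifs share no letters with each other in these windows. A match describes letters in a window and says nothing on whether a factor binds there.

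Except for H2AFJ and H2AFY, the members were abundant mRNAs in every library, with at least 90.3% of genes below each. FPKM is per length, so levels of different genes can be set in order within a library, but without replicates it is unknown which neighbours in that order differ beyond their spread. H2AFX, whose protein is phosphorylated around DNA breaks and whose mRNA is known in both a stem-loop and a polyadenylated form, was the highest member in input (139 FPKM), si_LINC00882 (107) and si_NC (86.3). In the pulldown it stood at 158 FPKM and came after H1F0. Between 97.4% and 98.9% of all genes lay below H2AFX in each library. H2AFZ, one of the H2A.Z genes, was next in si_LINC00882 and si_NC. H2AFJ, an H2A variant known to accumulate in senescent human cells, had 50.5% to 68.5% of genes below it. H2AFY, which encodes macroH2A1 with its large globular macro domain, had 49.4% to 70.8% of genes below it. Of the 9 members, 5 had their highest level in the pulldown, 3 in input, and 1, H2AFY, in si_NC. The same share over all genes was not computed. Over all genes listed for a library, the median FPKM was also highest in the pulldown, at 6.53. It was 4.02 in input, 5.70 in si_LINC00882 and 5.78 in si_NC. Among the members, the spread over the 4 libraries was smallest for H2AFV, at 1.42 times between the highest and lowest, and largest for H1F0, at 4.45 times.

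**Figure D1:**
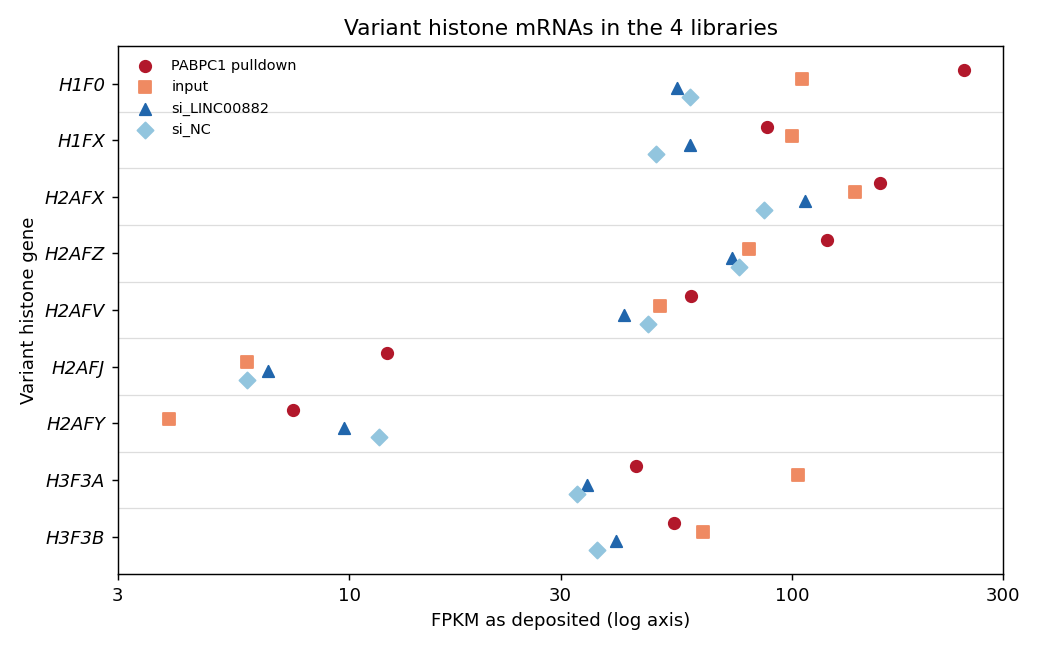
FPKM as deposited, on a log axis, of the 9 variant histone genes (rows) in the 4 libraries (symbols), 1 value per gene and library. H1F0 is far to the right in the pulldown (244 FPKM), H3F3A in input (103 FPKM), and H2AFJ and H2AFY stay at or below 12.2 FPKM.

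The linker histones parted in the pulldown. H1F0, the replacement linker histone of slowly dividing and differentiated cells, had 244 FPKM in the pulldown and 106 in input, and 54.8 in si_LINC00882 and 58.7 in si_NC. The pulldown level was the highest, both transfected libraries were close to each other, and input lay between. The log2 ratio of pulldown over input, computed on FPKM plus 1 as all ratios here, was 1.20, or 0.74 above the median of all genes, and 87.1% of genes had a lower ratio. H1FX, the linker variant H1X, had 87.7 FPKM in the pulldown and 99.9 in input, and 58.7 in si_LINC00882 and 49.3 in si_NC. Its ratio over input was -0.19, with 16.4% of genes lower. The level of H1F0 was thus 2.78 times that of H1FX in the pulldown, against 1.06 times in input, and 0.934 times in si_LINC00882 against 1.19 times in si_NC.

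Among the H2A variants, every member had a pulldown level above its input level, with log2 ratios under 1. H2AFX had 158 FPKM in the pulldown and 139 in input (0.19). Its span overlaps DPAGT1, which stood at 4.92 FPKM in the pulldown and 3.09 in input, so some uncertainty remains in how fragments were divided. H2AFZ, the larger source of H2A.Z mRNA, had 119.7 FPKM in the pulldown and 80.1 in input, and 73.4 in si_LINC00882 and 75.8 in si_NC. Input, si_LINC00882 and si_NC were close together for this gene, and the pulldown was above them (0.57 over input). H2AFV, the smaller source of H2A.Z mRNA, had 59.2 FPKM in the pulldown and 50.4 in input (0.23), and 41.6 in si_LINC00882 and 47.2 in si_NC. Relative to the median of all genes, H2AFX (-0.28) and H2AFV (-0.24) lay below and H2AFZ (0.11) above.

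The less abundant H2A variants had larger ratios. H2AFJ had 12.2 FPKM in the pulldown and 5.86 in input, and 6.56 in si_LINC00882 and 5.86 in si_NC. The pulldown stood apart from the other libraries, which were nearly level, with a ratio of 0.94 over input and 0.94 over si_NC. With a pseudocount of 0.1 its ratio over input was 1.04, past 2-fold. H2AFY had 7.47 FPKM in the pulldown and 3.92 in input, and 9.73 in si_LINC00882 and 11.7 in si_NC. Its pulldown level was above input (0.78) but below si_NC (-0.58), the only member below si_NC, so its direction depends on which control library is used. On the scale relative to all genes, H2AFJ lay at 0.47 and H2AFY at 0.32 over input.

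The H3.3 genes, which encode one protein between them, stood closer to each other outside input. H3F3A had 44.4 FPKM in the pulldown and 103 in input, and 34.5 in si_LINC00882 and 32.7 in si_NC. Input was the library that stood apart, and the pulldown was somewhat above both transfected libraries. The ratio over input was -1.19, with 1.42% of genes lower, whereas the ratio over si_NC was 0.43, with 69.2% of genes lower. H3F3B had 54.2 FPKM in the pulldown and 63.0 in input (-0.21), and 40.1 in si_LINC00882 and 36.3 in si_NC. H3F3A made up 45.0% of the H3.3 mRNA, as summed FPKM, in the pulldown and 62.1% in input, against 46.2% in si_LINC00882 and 47.4% in si_NC. The corresponding share of H2AFZ in the H2A.Z pair was 66.9% in the pulldown and 61.4% in input, and 63.8% in si_LINC00882 and 61.6% in si_NC. RefSeq names 7 pseudogenes after H3F3A, 2 after H3F3B, 7 after H2AFZ and 1 after H2AFV, none of which was analysed here, and how fragments shared with such copies were assigned is uncertain.

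The comparison of pulldown with input asks which mRNAs were recovered with PABPC1 more or less than their level in the lysate. Here 1 of the 9 members was at least 2-fold higher, H1F0, where 19.6% of the 10856 genes compared were. The single member at least 2-fold lower was H3F3A, where 2.37% of genes were. The count of higher members is thus no more than the background share, and the members' median of 0.23 was below the median of all genes, 0.47. Centred on that median, H1F0 (0.74) was within 2-fold and H3F3A (-1.66) was the only member past it, while 802 of all genes were past 2-fold higher and 831 lower, against 2124 higher and 257 lower uncentred. Relative to all genes, 4 members lay above the median (H1F0, H2AFJ, H2AFY and H2AFZ) and 5 below. With FPKM rescaled so that both libraries have the same sum, the median of all genes was 1.08, and 55.2% of them were at least 2-fold higher. In that setting 4 members were past 2-fold higher (H1F0, H2AFZ, H2AFJ and H2AFY), and H3F3A stood at -0.43.

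Against si_NC, a library of other treatment and handling from a separate table, the pulldown gave other values for most members. The comparison shares the pulldown library with the one above. H1F0 was again the member with the largest ratio, 2.04, with 99.3% of genes lower, and the single member at least 2-fold higher, where 7.16% of 10810 genes were. No member was 2-fold lower, where 2.48% of genes were. The median of the members was 0.65 and that of all genes 0.16. Over si_NC, 8 of the 9 members lay above the median of all genes, all but H2AFY.

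**Figure D2:**
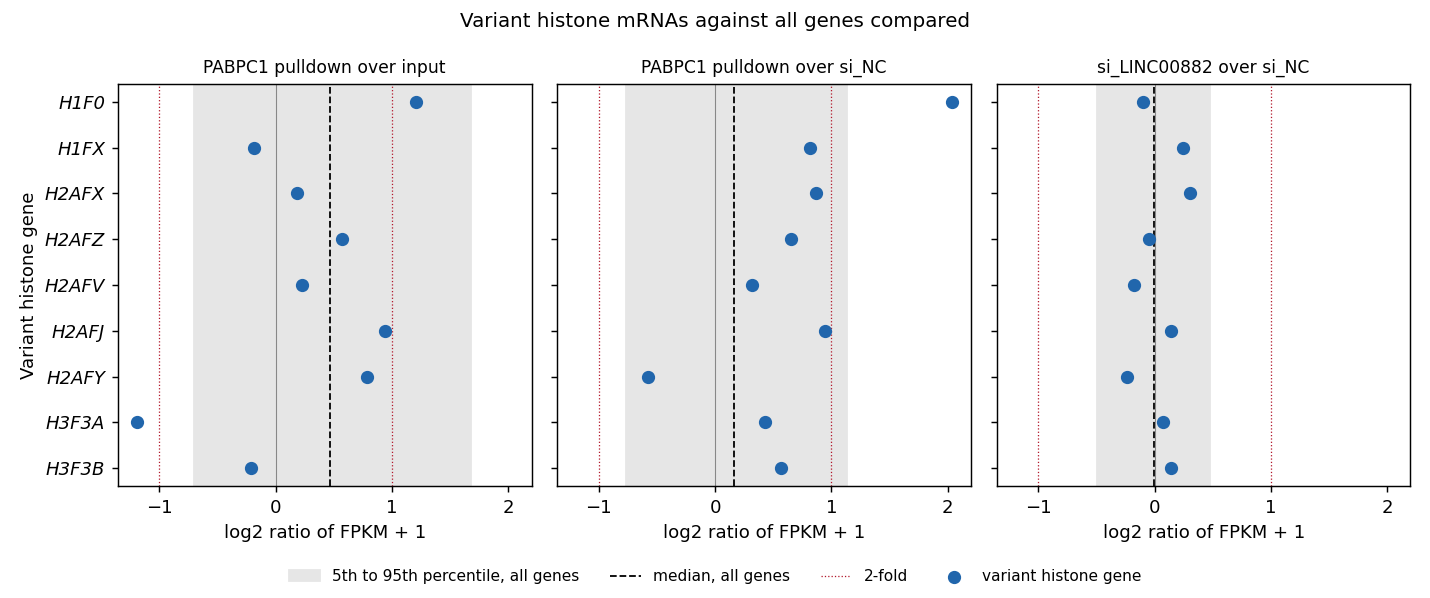
Log2 ratios of FPKM + 1 for the 9 variant histone genes (points) in 3 comparisons, with the median of all genes compared (dashed), their 5th to 95th percentile (grey) and 2-fold (dotted). H3F3A is left of the grey band over input (-1.19) and inside it over si_NC (0.43), H1F0 is right of 2-fold in both pulldown panels (1.20 and 2.04), and in the silencer panel all 9 points lie inside the band.

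The control libraries themselves differed at these genes, with input above si_NC for most of them. H3F3A was 1.62 higher in input on the log2 scale, with 98.7% of genes lower, and H1FX 1.00 higher, the 2 members at least 2-fold higher, where 5.95% of 10511 genes were. H1FX lay at the threshold and was below it, at 0.98, when libraries were rescaled without mitochondrially encoded genes. H2AFY was the 1 member at least 2-fold lower (-1.36), where 19.2% of genes were. Centred on the median of all genes, 1189 genes were at least 2-fold higher in input and 1244 lower, against 625 higher and 2015 lower uncentred. H2AFZ (0.08), H2AFV (0.09) and H2AFJ (5.86 FPKM in both) were nearly level between these libraries. H1F0 (0.83), H3F3B (0.78) and H2AFX (0.68) were higher in input, by less than 2-fold. The members' median was 0.68, and the median of all genes was -0.29. These differences arose with neither a pulldown nor a knockdown. Lysis, transfection and library handling cannot be told apart between them.

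In si_LINC00882 every variant histone mRNA was within 1.24 times of its si_NC level. None of the 9 members was 2-fold higher, where 0.859% of 10478 genes were, and none was 2-fold lower, where 1.15% were. H2AFX had the highest ratio, with 107 FPKM in si_LINC00882 and 86.3 in si_NC (0.31, 88.4% of genes lower), followed by H1FX (0.25). H2AFY had the lowest, with 9.73 FPKM in si_LINC00882 and 11.7 in si_NC (-0.24, 16.5% of genes lower), followed by H2AFV (-0.18). The others were H2AFJ at 0.14, H3F3B at 0.14, H3F3A at 0.07, H2AFZ at -0.05 and H1F0 at -0.10. All 9 ratios lay between the 5th and 95th percentile of all genes, -0.50 and 0.47. The members' median was 0.07 and that of all genes -0.0056. With input in place of si_NC, where 19.1% of genes were at least 2-fold higher and 5.99% at least 2-fold lower, H2AFY stood at 1.13 and H3F3A at -1.55.

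Summed over classes, the makeup of variant histone mRNA moved with the library. Linker histones made up 42.2% of the members' summed FPKM in the pulldown and 31.6% in input, against 26.6% in si_LINC00882 and 26.8% in si_NC. H3.3 mRNA made up 12.5% in the pulldown and 25.5% in input, against 17.5% in si_LINC00882 and 17.1% in si_NC. The H2A variants took 45.3% in the pulldown and 42.9% in input, and 55.9% in si_LINC00882 and 56.1% in si_NC. H1F0 alone accounted for 31.0% of the members' FPKM in the pulldown and 16.2% in input. Within the H2A variants, H2AFX made up 44.3% in the pulldown and 49.7% in input, and 44.9% in si_LINC00882 and 38.1% in si_NC.

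The members were set beside the replication-dependent histone genes of the same tables. The 9 variants summed to 787 FPKM in the pulldown and 650.2 in input, 1.21 times as much, while the 45 replication-dependent genes listed for this pair summed to 937 in the pulldown and 188 in input, 4.99 times as much. Variant mRNAs therefore made up 45.6% of all histone FPKM in the pulldown and 77.6% in input. In the transfected cells, with 31 replication-dependent genes listed, the variants made up 78.1% of histone FPKM in si_LINC00882 and 77.0% in si_NC. The share outside the pulldown thus stayed between 77.0% and 78.1% in these 3 libraries, although the summed level of the variants was 1.61 times as high in input as in si_NC. Over the 31 replication-dependent genes present in all 4 tables, the sum was 866 FPKM in the pulldown and 182 in input, 4.75 times as much. Which of these genes are listed may itself depend on their level in the pulldown, so no count over them is given. Replication-dependent genes are near-identical paralogs, so their values are uncertain, and the difference between the groups had no test.

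**Figure D3:**
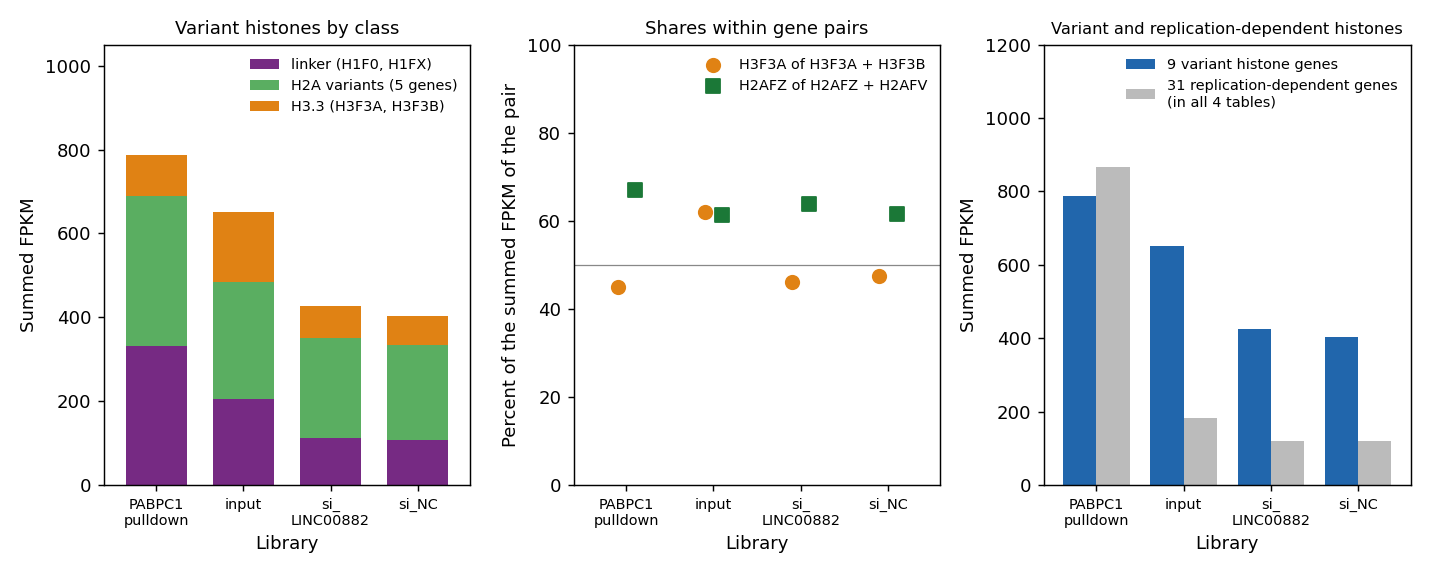
Left, summed FPKM of the variant histone genes by class in each library. Middle, the share of H3F3A in the H3.3 pair and of H2AFZ in the H2A.Z pair, as percent of the pair's summed FPKM, with a line at 50%. Right, summed FPKM of the 9 variant genes beside the 31 replication-dependent genes present in all 4 tables. The H3F3A share is above the line in input only (62.1%), and replication-dependent mRNA exceeds variant mRNA in the pulldown only.

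Genes that handle variant histones were read from lists. Of 33 chaperone and remodeller genes, 6 were at least 2-fold higher in the pulldown than in input, a share near the 19.6% of all genes. None was 2-fold lower, where 2.37% of genes were. Their median of 0.45 was also near that of all genes. The H2A.Z-depositing remodeller genes SRCAP (6.51 FPKM in the pulldown and 1.58 in input, 1.54) and EP400 (6.39 and 2.22 in the same order, 1.20) were among them. So were INO80, another chromatin remodeller (8.97 FPKM in the pulldown and 3.08 in input, 1.29), and NAP1L4, an H2A-H2B chaperone (19.0 FPKM in the pulldown and 6.80 in input, 1.36). Over si_NC none of the 33 was past 2-fold in the pulldown, where 7.16% of all genes were higher and 2.48% lower. Their median was then -0.13, and that of all genes 0.16. CENPA, the centromeric H3 variant and the other variant histone with a value, had 19.6 FPKM in the pulldown and 9.85 in input (0.92), and 12.5 in si_LINC00882 and 9.18 in si_NC (0.41). After silencing the median of the 33 was -0.024, and that of all genes -0.0056. IPO4, an importin for histones whose span overlaps REC8 in RefSeq, was the 1 chaperone gene then at least 2-fold higher (12.1 FPKM in si_LINC00882 and 4.79 in si_NC, 1.18). Of all genes, 0.859% were at least 2-fold higher after silencing and 1.15% lower. UBN1, a subunit of the HIRA complex that deposits H3.3, had 3.50 FPKM in si_LINC00882 and 7.16 in si_NC (-0.86).

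Of 12 genes for the processing of stem-loop histone mRNAs, 2 were at least 2-fold higher in the pulldown than in input. This was again near the 19.6% of all genes. None was 2-fold lower, where 2.37% of genes were. Their median was 0.18, and that of all genes 0.47. The 2 were ERI1, an exonuclease acting on the stem-loop (7.26 FPKM in the pulldown and 0.625 in input, 2.35), and SYMPK, the scaffold symplekin (8.55 FPKM in the pulldown and 2.34 in input, 1.51). Over si_NC none of the 12 was past 2-fold in the pulldown, where 7.16% of all genes were higher and 2.48% lower. ERI1 had 7.46 FPKM in si_LINC00882 and 7.85 in si_NC, so that input was the low library for this gene. SLBP, the stem-loop-binding protein, had 56.4 FPKM in the pulldown and 72.3 in input (-0.35). ZNF473, a U7 snRNP-associated zinc finger gene, was the 1 member of that list at least 2-fold higher after silencing, where 0.859% of genes were. It had 6.04 FPKM in si_LINC00882 and 1.79 in si_NC (1.33). Of 10 genes for proteins that act with H2AX or macroH2A, 1 was at least 2-fold higher in the pulldown, where 19.6% of genes were. This was the kinase ATM that phosphorylates H2AX (4.89 FPKM in the pulldown and 0.285 in input, 2.20, named after its values were seen). In the other direction was USP16, a deubiquitinase of H2A (16.0 FPKM in the pulldown and 34.5 in input, -1.06). Of all genes, 2.37% were at least 2-fold lower. The median of the 10 was 0.74, and that of all genes 0.47. PRKDC, another kinase of H2AX, had 25.1 FPKM in the pulldown and 13.2 in input (0.88), and PARP1 had 26.4 in the pulldown and 15.3 in input (0.75). Over si_NC the direction of both turned, to -1.02 for PRKDC (25.1 FPKM in the pulldown and 51.9 in si_NC) and -0.59 for PARP1, and the median of the 10 was -0.37. The median of all genes in that comparison was 0.16. PRKDC was then the 1 gene of the list at least 2-fold lower, where 2.48% of all genes were. None was 2-fold higher, where 7.16% of all genes were. ATM likewise was low in input alone, with 4.58 FPKM in si_LINC00882 and 5.19 in si_NC. After silencing none of the 10 was past 2-fold, where 0.859% of all genes were higher and 1.15% lower. Their median was -0.15, and that of all genes -0.0056.

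Likeness of pattern was measured as the distance between log2(FPKM + 1) profiles over the 4 libraries, each centred on its own mean, among 7346 other genes with at least 5 FPKM somewhere. The nearest gene to H1F0 was SCD, a fatty acid desaturase gene, with 117 FPKM in the pulldown, 52.4 in input, 24.98 in si_LINC00882 and 26.8 in si_NC (distance 0.090). For H3F3A it was RNF13, a ubiquitin ligase gene, with 3.05 FPKM in the pulldown, 7.91 in input, 2.21 in si_LINC00882 and 2.18 in si_NC (0.099). These 2 members had the largest distances to their nearest gene. The nearest genes to the rest were MRPL32 for H1FX (0.055), BROX for H2AFX (0.029), LAMTOR2 for H2AFZ (0.036), TUSC2 for H2AFV (0.033), ZSWIM1 for H2AFJ (0.020), DCAF1 for H2AFY (0.037) and OSGIN2 for H3F3B (0.0093). Among the members, H1FX and H3F3B had the closest profiles (0.20), followed by the H2A.Z pair H2AFZ and H2AFV (0.28), while H1F0 and H2AFY were farthest apart (2.36). With 4 libraries, a near profile is easily found, and these distances are descriptions.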

How the data were processed

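Each of the 4 libraries has a table of genes whose values the authors deposited as FPKM, per the file headers. Tools listed by the submitters' processing notes, with no role or order, are StringTie 1.3.3, HISAT2 2.1.0, cutadapt 1.17 and FastQC 0.11.7, with the build GRCh37. The sources used here do not give read depth, library selection, annotation version or filters. Depth is thus unknown, and values carry no interval. Libraries were grouped by their treatment label. Ratios are log2 of FPKM plus a pseudocount of 1, which understates changes of low genes, over genes reaching 1 FPKM in one or both libraries. A gene is called at 2-fold or more. No p-value was computed, since groups have 1 library. The members and gene lists were chosen with earlier results of these data known. From each list, up to 4 genes of at least 5 FPKM with the largest absolute ratios are named, and any other is said to be chosen after its values were seen. The cell line, luminal and blood markers served only as a check of the cell line. RefSeq (GRCh38.p14), not the build of the values, gave names, overlaps and promoters. The ratio step was tested on simulated data. Computation used pandas 2.3.3 and numpy 2.4.6 under Python 3.11.15, and plots matplotlib 3.10.9.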

Additional observations from a re-analysis of the deposited data

How the results depend on the processing

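Results were recomputed with other pseudocounts (0.1 and 5), other FPKM minimums (none and 5), ratios centred on the median of all genes, rescaling without mitochondrial genes, the control library of the other pair, and calls at 1.5-fold and 3-fold. Rescaling to the same sum over all genes was chosen after seeing the data. No paired analysis was possible because each group was 1 library, and for the same reason no library could be left out. For the pulldown over input, 2 members were called in the report, against 3 with a pseudocount of 0.1 (H2AFJ added), 1 when centred, 1 over si_NC, 4 with equal sums, 4 at 1.5-fold and 0 at 3-fold. The members' median there was 0.23 and 0.21 with pseudocounts of 0.1 and 5, -0.24 when centred, 0.13 rescaled without mitochondrial genes, 0.99 with equal sums and 0.65 over si_NC. H3F3A alone among called members changed direction, to 0.43 over si_NC. H1F0 kept its direction in all 8 alternatives, from 0.74 to 2.04. Of all genes, 2124 were called higher and 257 lower, against 3302 and 354 with a pseudocount of 0.1, 623 and 128 with 5, 5988 and 68 with equal sums, 4561 and 737 at 1.5-fold, and 639 and 67 at 3-fold. For si_LINC00882, no member was called except with input as control, where 2 were, with a median of -0.37. Input as control called 19.1% of all genes higher and 5.99% lower. The other medians of the members for si_LINC00882 were 0.074 and 0.064 with pseudocounts of 0.1 and 5. They were 0.077 centred, 0.079 without mitochondrial genes and 0.028 with equal sums. For input over si_NC, 3 members were called in the report, against 1 with a pseudocount of 5 and 5 centred. The number was 2 rescaled without mitochondrial genes (H1FX lost), 1 with equal sums, 6 at 1.5-fold and 1 at 3-fold. Of all 10511 genes in that comparison, 625 were called higher and 2015 lower in the report. These counts were 287 and 677 with a pseudocount of 5, 1189 and 1244 centred, and 592 and 2076 rescaled without mitochondrial genes. They were 137 and 4356 with equal sums, 1573 and 3683 at 1.5-fold, and 146 and 742 at 3-fold. With a pseudocount of 1 the share of H3F3A was 45.1% in the pulldown, 61.9% in input, 46.3% in si_LINC00882 and 47.5% in si_NC, and that of H2AFZ 66.7%, 61.2%, 63.6% and 61.4% in the same order. Counting only the 31 replication-dependent genes of all 4 tables, variants made up 47.6% of histone FPKM in the pulldown and 78.1% in input. The cause of these shifts was not tested beyond what each setting changes by construction. Without replicates or depth, no difference here has an error.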
